A study of Mus musculus with 2 samples.

Results

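The axon guidance ligands and receptors examined here are 69 of the 32285 genes in the count tables. They comprise 20 semaphorins, 9 plexins with neuropilin 2, 3 Slits, 4 Robo receptors and 4 netrins. The rest are 6 netrin receptors (Dcc, Neo1 and the Unc5 genes), 5 ephrin-A and 3 ephrin-B ligands, and 9 EphA and 5 EphB receptors. These 69 members were chosen by symbol, with earlier results of these data known. They were measured by single-cell RNA sequencing (10x Chromium, which counts unique molecular identifiers, UMIs, at the 3′ end of transcripts) in 2 libraries of mouse kidney at P0, the day of birth. Both libraries carry the genotype label Rbpj c/+ ; Foxd1cre/+, so they form 1 group with no control genotype, and every comparison is between cell types inside the same libraries. Foxd1 drives the Cre in stromal progenitors of the kidney. Classes that come from these progenitors may therefore differ from the others in Rbpj alleles as well as in cell type, which cannot be told apart here. The labels do not say whether the libraries came from separate animals. P-values measure how far differences between classes vary between the 2 libraries, over all classes together and with the overall library difference removed. This spread may be technical.

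Axon guidance genes were named for steering growing nerve fibres, and the same families act in organs without many neurons. Slits are secreted ligands of Robo receptors, netrins act through Dcc, neogenin and the Unc5 receptors, semaphorins signal through plexins with neuropilins as co-receptors, and ephrins are membrane-bound ligands of Eph receptors on neighbouring cells. In the kidney, Slit2 and Robo2 are known for limiting where the ureteric bud grows out, class 3 semaphorins for acting on podocytes, vessels and the branching bud, and ephrin-B2 with EphB4 for marking arteries and veins.

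The 4 promoters shown here belong to genes whose counts were largely held by 1 cell class: Robo4 in endothelium, Sema3g and Sema3e in podocytes, and Sema3a in stroma. Each spans 250 bases before to 50 after the gene's start (RefSeq, GRCm38.p6, plus strand), at chr9:37401722-37402021, chr14:31217623-31217922, chr5:14025026-14025325 and chr5:13396534-13396833 in that order. The RefSeq start of Sema3a lies 271370 bases inside the gene as GENCODE M21 places it, so its window is at an internal start, while the other starts are within 75 bases of the GENCODE gene start. Capitals mark the letters AGGAAG, the core bound by ETS factors, on either strand.
Robo4: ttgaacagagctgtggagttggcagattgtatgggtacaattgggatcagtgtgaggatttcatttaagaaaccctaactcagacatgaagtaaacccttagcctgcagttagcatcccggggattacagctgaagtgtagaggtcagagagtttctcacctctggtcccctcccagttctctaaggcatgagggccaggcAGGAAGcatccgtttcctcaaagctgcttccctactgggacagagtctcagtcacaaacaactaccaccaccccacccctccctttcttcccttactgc
Sema3g: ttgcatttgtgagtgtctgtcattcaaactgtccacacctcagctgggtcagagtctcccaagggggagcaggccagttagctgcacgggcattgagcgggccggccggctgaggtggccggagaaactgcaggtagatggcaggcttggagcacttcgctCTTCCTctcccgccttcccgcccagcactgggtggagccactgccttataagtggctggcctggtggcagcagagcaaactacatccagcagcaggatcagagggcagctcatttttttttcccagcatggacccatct
Sema3e: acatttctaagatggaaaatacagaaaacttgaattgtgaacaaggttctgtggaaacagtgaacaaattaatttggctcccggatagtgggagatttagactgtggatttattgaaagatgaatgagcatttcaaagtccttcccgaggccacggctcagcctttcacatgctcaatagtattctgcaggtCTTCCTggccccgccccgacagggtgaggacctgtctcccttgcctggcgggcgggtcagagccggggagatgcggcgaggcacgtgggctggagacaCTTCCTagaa
Sema3a: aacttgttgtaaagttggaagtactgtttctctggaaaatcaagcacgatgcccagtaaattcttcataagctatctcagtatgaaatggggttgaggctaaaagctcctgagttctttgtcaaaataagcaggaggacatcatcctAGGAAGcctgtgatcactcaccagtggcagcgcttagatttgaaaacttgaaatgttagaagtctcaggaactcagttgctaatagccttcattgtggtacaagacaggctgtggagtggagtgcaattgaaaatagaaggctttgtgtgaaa
All 4 windows hold AGGAAG, and so do 35.4% of the 32851 RefSeq mouse promoters of this length. Of 20 promoter windows of the members highest in endothelium 6 hold it, and of 11 windows of members highest in podocytes 5 do. The letters GTAAACA (forkhead; 3.65% of all promoters) were in none of these 20 and 11 windows, TAATTA (homeodomain; 5.29%) in 2 and 0, and GCGNGGGNG (WT1 or EGR; 12.3%) in 6 and 2. Promoters were matched for 59 of the 69 members.

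The 2 libraries, called replicates 1 and 2, held 200331687 and 173166168 UMIs, of which 5284 and 4064 cells were kept. Cells were assigned to types by marker genes, none of which is a member, and 3936 and 2825 cells entered a class. The comparisons used the 13 classes that reached 20 cells in each library, from 57 and 40 ureteric tip cells to 706 and 444 stroma cells, and every class had all its own markers above 0 in both libraries. Several classes carried markers of others. Intercalated cells had collecting duct markers at a summed 1422 and 1014 CPM, against 4895 and 4291 CPM in the duct, and loop of Henle markers at 1225 and 1123 CPM. The mural class had stroma markers at 1007 and 953 CPM, against 6529 and 6644 CPM in stroma, and stroma had mural markers at 521 and 1001 CPM. The erythroid class had endothelial markers at 1034 and 829.8 CPM, against 6200.4 and 6714 CPM in endothelium. It also had proximal tubule markers at 1474 and 351 CPM, against 10335 and 10298 CPM in proximal tubule. Podocytes had stroma markers at 562 and 465 CPM, and endothelium had podocyte markers at 457 and 393 CPM. The part of these markers' cells in the levels of the classes was not tested. Levels below are a gene's counts scaled to 1000000 UMIs of the class (CPM) in replicates 1 and 2 in that order, and they compare 1 gene across classes, not genes with each other.

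Of the 69 members 66 had enough counts to be tested, and Ntn5, Plxnb3 and Unc5a, with 28, 14 and 23 counts in the classes, did not. Each class was compared with the mean of the other 12 on the log scale by edgeR's quasi-likelihood test, and a gene was called at an adjusted p under 0.05 over all 17437 genes tested. The members gave 529 calls among 858 tests (319 higher and 210 lower), while 44.0% of the tests of all genes gave a call (25.5% higher and 18.6% lower). The class with the highest level was the same in both libraries for 49 of the 66 members (74.2%), against 66.7% of all genes tested. The highest class held a median of 30.5% of a member's CPM summed over classes, against 18.9% for all genes. Endothelium was the highest class for 16 members (24.2%, against 8.59% of all genes), ureteric tip for 11 (16.7%, against 7.47%) and podocytes for 9 (13.6%, against 12.0%). The other 30 members were spread over 10 classes, with at most 4 in any of them. The heatmap of mean levels shows these blocks.

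**Figure D1:**
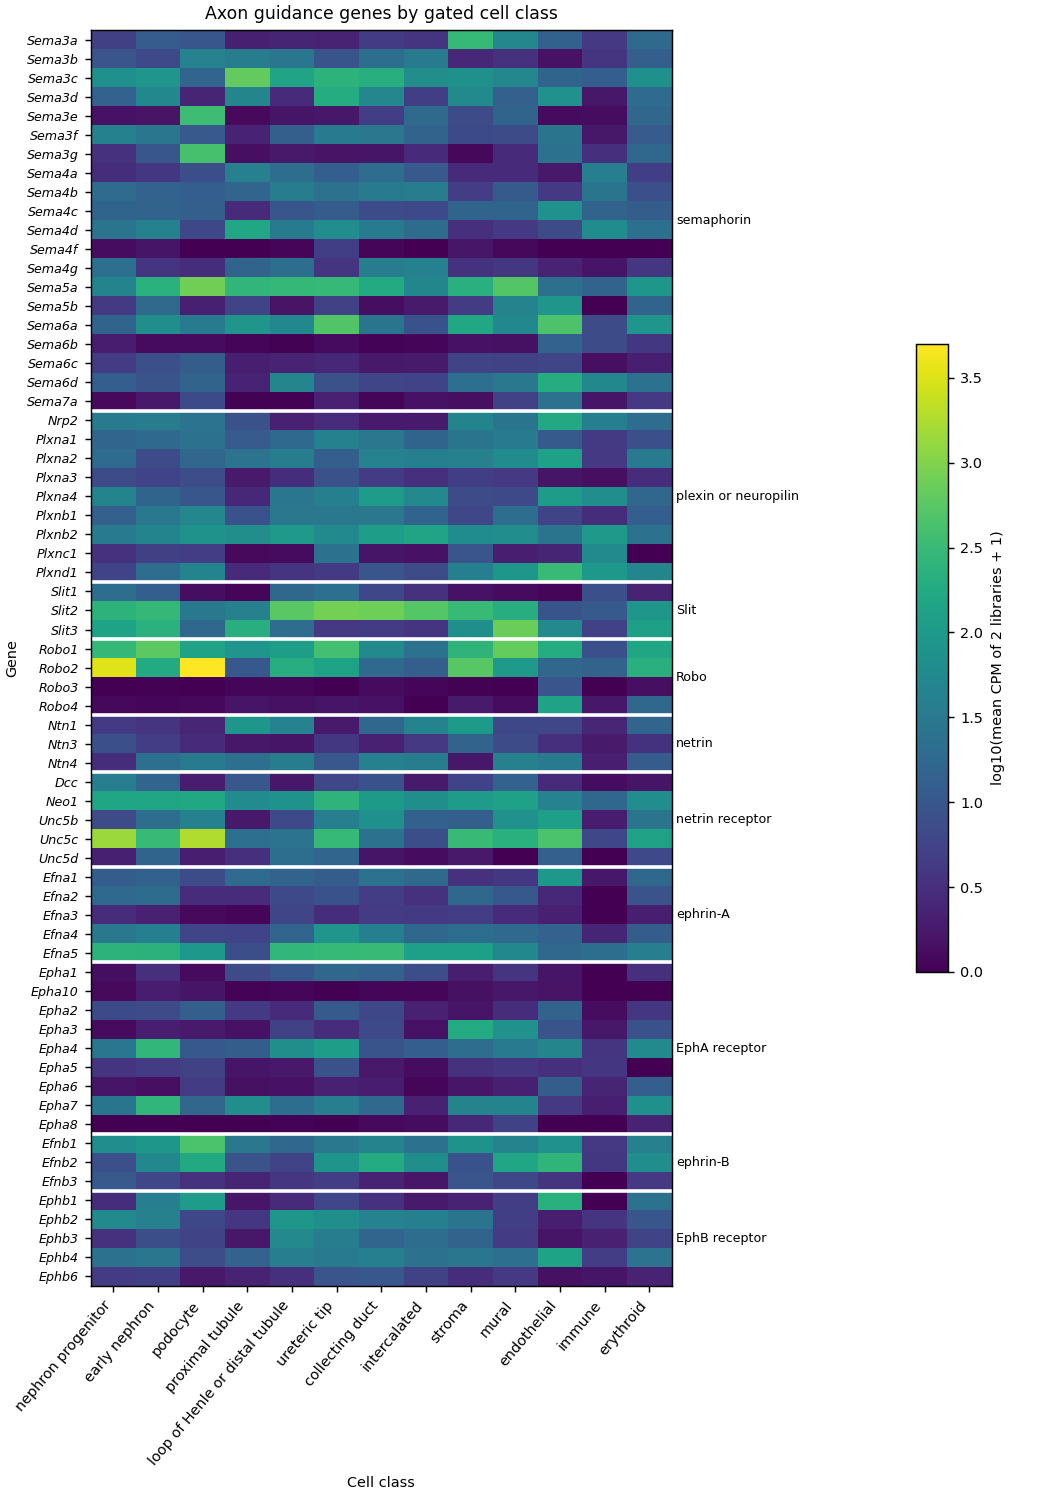
Mean level of the 66 tested members (rows, grouped by family) in the 13 cell classes (columns), as log10 of the mean CPM of both libraries plus 1. Sema3e, Sema3g, Robo4 and Sema3a each have 1 bright class, while Slit2, Robo1, Neo1 and Efna5 are spread over many.

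In the early nephron, which forms from condensing progenitors, 33 members were higher (background 29.2% of all genes) and 10 lower (background 20.6%). In the ureteric tip, the branching end of the collecting system, 32 members were higher (background 23.9% of all genes) and 10 lower (background 16.0%). In endothelium, 31 members were higher (background 29.6% of all genes) and 22 lower (background 20.5%). In the collecting duct, 29 members were higher (background 24.5% of all genes) and 16 lower (background 15.5%). In stroma, 29 members were higher (background 27.6% of all genes) and 14 lower (background 19.7%). In the loop of Henle and distal tubule, 27 members were higher (background 29.4% of all genes) and 14 lower (background 18.5%). These 6 classes and the mural class had the most members higher. In the mural class of pericytes and smooth muscle, 27 were higher (background 22.1%) and 7 lower (background 14.5%). In podocytes, 24 were higher (background 25.8%) and 16 lower (background 23.8%). In nephron progenitors, 23 were higher (background 30.4%) and 15 lower (background 21.6%). Immune cells and proximal tubule went the other way, with more members lower than higher. The counts in immune cells were 10 higher (background 22.5%) and 36 lower (background 22.6%). The counts in proximal tubule were 16 higher (background 32.2%) and 30 lower (background 23.4%). Intercalated cells had similar counts both ways, with 16 members higher (background 23.2%) and 19 lower (background 20.9%). The erythroid class had 22 members higher (background 10.9%) and 1 lower (background 3.74%). Markers of other classes were also found in it. Robo4, an endothelial receptor, was at 14.8 and 18.4 CPM there beside endothelial markers at 1034 and 829.8 CPM. Robo2, a podocyte and progenitor receptor, was at 406 and 33.5 CPM beside podocyte markers at 662 and 49.5 CPM. The part of endothelial, podocyte or other cells in the erythroid counts was not tested. Lower calls are incomplete in this test: where a gene had no count in some other class, the mean of the others has no lower bound, and 42 of the 858 member tests gave a p near 1 beside a log2 size over 1. The fitted size of a higher call depends on edgeR's prior count in the same case. Of the members whose class differences follow, Robo3, Robo4, Ephb1 and Plxnc1 had another class with no count in either library, and theirs are therefore given per library on the log2(CPM + 1) scale.

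Slit2 and its receptor Robo2 had their highest levels in different classes, while Slit3 and Robo1 were both highest in mural cells. Slit2 is the secreted ligand that keeps the ureteric bud to a single site. It was at 903 and 775 CPM in the ureteric tip, 765 and 762 in the collecting duct, 563 and 569.7 in the loop of Henle and distal tubule and 478 and 587 in intercalated cells. It was lowest in endothelium, at 9.67 and 6.73 CPM, and in immune cells, at 10.7 and 9.62, and neither group of libraries overlapped the 4 tubular classes. In the test, Slit2 was higher in the tip by a log2 difference of 2.60 (SE 0.14, adjusted p = 1.05e-11). Slit3 was low in those classes: it was at 3.18 and 3.05 CPM in the tip, 4.27 and 2.69 in the collecting duct and 2.68 and 2.83 in intercalated cells. Mural cells had the highest Slit3, 381 and 1109 CPM, and although both libraries were above every other class, they differed from each other by a larger factor than the lower one did from the early nephron at 223 and 234. Proximal tubule followed at 231 and 178, and Slit3 was higher there by a log2 difference of 2.98 (SE 0.29, adjusted p = 2.43e-08). Slit1, the third member, reached 21.2 and 21.7 CPM in the tip and 26.5 and 14.8 in nephron progenitors, which overlapped.

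Robo2, the receptor for Slit2 in kidney induction and a protein of the podocyte foot process, stood at 4949 and 5036 CPM in podocytes and 3290.1 and 3288 in nephron progenitors. Stroma came next at 523 and 567 and the early nephron, between progenitor and podocyte in the lineage, was at 217 and 142. Robo2 was higher in podocytes by a log2 difference of 5.93 (SE 0.20, adjusted p = 2.52e-15) and in progenitors by a log2 difference of 5.26 (SE 0.20, adjusted p = 6.52e-14). The 3 Slits summed to 64.01 and 28.8 CPM in podocytes, against 370.0 and 435 CPM in progenitors and 927 and 799.9 CPM in the tip. Robo1, the more widely used receptor, was at 629 and 694 CPM in mural cells and 613 and 546 in the early nephron, and lowest in immune cells at 6.28 and 7.87. Robo1 in mural cells was higher by a log2 difference of 2.48 (SE 0.11, adjusted p = 3.23e-13). Robo4, the endothelial member, was at 135 and 134 CPM in endothelium and at or under 1.22 CPM in both libraries of every class other than endothelium and the erythroid class. Robo4 was higher in endothelium by 6.37 and 6.24 in the libraries on the log2(CPM + 1) scale (edgeR adjusted p = 3.46e-18). Robo3 was also highest in endothelium, at the low levels of 9.96 and 6.63 CPM, with the erythroid class next at 0 and 0.798. It was higher in endothelium by 3.35 and 2.80 in the libraries on the log2(CPM + 1) scale (edgeR adjusted p = 5.03e-08). Robo3 passed the low-count filter through its endothelial counts alone, so this p-value rests on the values that admitted the gene and adds no separate support.

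**Figure D2:**
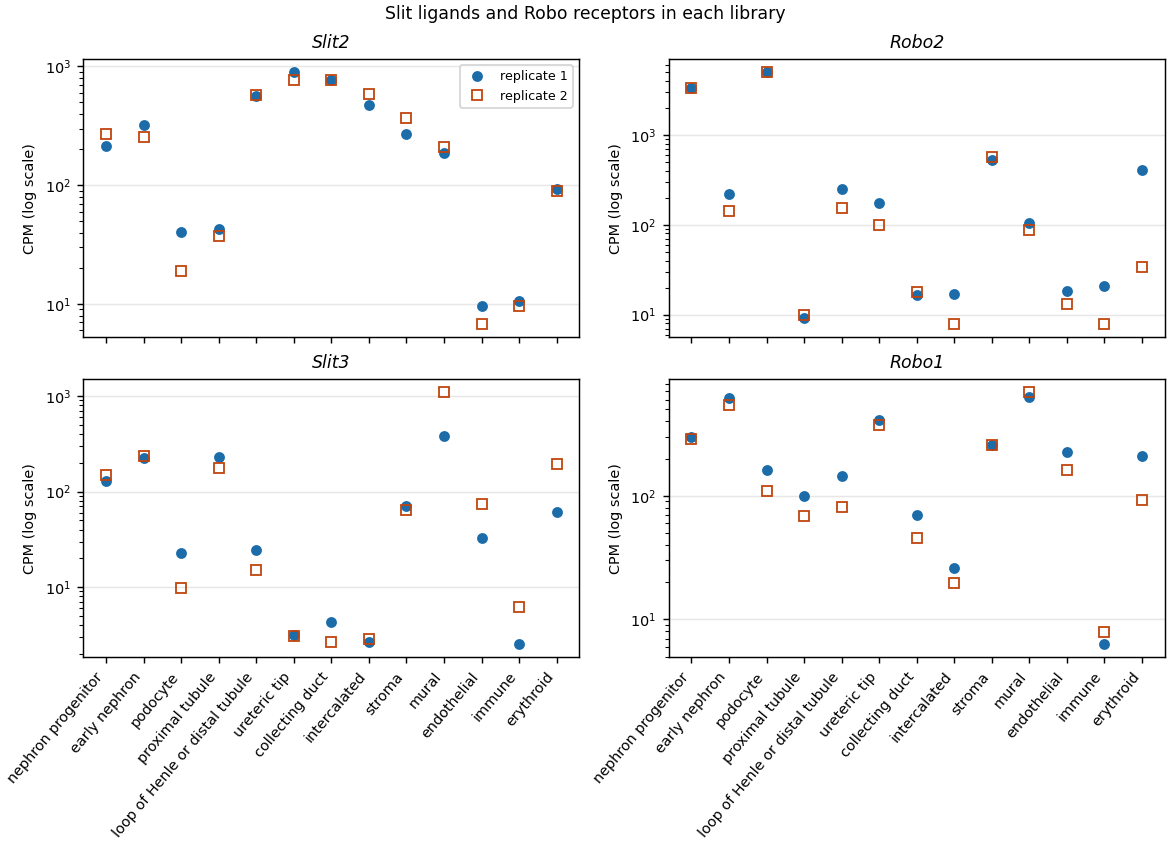
CPM of 2 Slit ligands and 2 Robo receptors in each cell class on a log scale, with 1 point per library. Robo2 stands above 3000 CPM in nephron progenitors and podocytes only, Slit2 is highest in ureteric tip and collecting duct, and Slit3 is highest in mural cells with a gap between the libraries.

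The 3 netrins tested were found in stroma, tubules and vessels, each with its own order of classes. Ntn1 encodes netrin-1, the founding secreted ligand. It was at 92.1 and 111 CPM in stroma and 102 and 76.6 in proximal tubule, which overlapped, followed by 45.6 and 43.5 in intercalated cells and 40.1 and 43.98 in the loop of Henle and distal tubule. Ntn1 was higher by a log2 difference of 3.75 (SE 0.17, adjusted p = 2.51e-13) in stroma and by a log2 difference of 3.80 (SE 0.16, adjusted p = 5.19e-14) in proximal tubule, and it was lowest in the ureteric tip, at 0.796 and 0.915. Ntn4, a netrin that binds laminins in basement membranes, had no class that stood apart: collecting duct, mural, intercalated, endothelial, podocyte and loop of Henle libraries lay between 14.8 and 53.6 CPM. It was nearly absent in stroma, at 0.851 and 0.567 CPM, with a log2 difference of -4.48 (SE 0.58, adjusted p = 2.37e-06). Ntn3 was highest in stroma, at 10.6 and 17.6.

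Among the netrin receptors, Unc5c followed Robo2. It was at 1730.4 and 1911 CPM in podocytes and 1291 and 1521 in nephron progenitors, then 389 and 503 in endothelium. It was higher in podocytes by a log2 difference of 4.33 (SE 0.19, adjusted p = 1.42e-13) and in progenitors by a log2 difference of 3.91 (SE 0.19, adjusted p = 2.43e-12). Dcc, the attractive netrin receptor of neurons, was low everywhere and highest in progenitors, at 38.5 and 35.1 CPM, with a log2 difference of 3.81 (SE 0.29, adjusted p = 1.74e-09). In mural cells the libraries disagreed on Dcc, at 25.5 and 1.85. Neo1, its relative that also binds repulsive guidance molecules, was in every class, from 18.8 and 13.99 in immune cells to 276 and 234 CPM in the tip, where it was higher by a log2 difference of 1.47 (SE 0.11, adjusted p = 2.22e-09). Unc5b, a vascular netrin receptor, was at 122 and 122 CPM in endothelium and 75.1 and 69.4 in mural cells, and at 1.05 and 0.510 in proximal tubule. It was higher in endothelium by a log2 difference of 3.27 (SE 0.17, adjusted p = 1.73e-12). Unc5d reached 27.7 and 13.2 CPM in the loop of Henle and distal tubule, 16.98 and 12.8 in the tip, 9.46 and 19.3 in the early nephron and 13.2 and 11.9 in endothelium, ranges that met or overlapped, and had no count in mural or immune cells.

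Most class 3 semaphorins, the secreted ones, were high in 1 or a few classes. Sema3e, a ligand of plexin D1 in vessel guidance, was at 377 and 341 CPM in podocytes and next at 24.5 and 11.7 in intercalated cells. Sema3g was at 327 and 506 CPM in podocytes and next in endothelium, at 24.3 and 21.4. Both were higher in podocytes, Sema3e by a log2 difference of 7.79 (SE 0.23, adjusted p = 3.42e-16) and Sema3g by a log2 difference of 7.76 (SE 0.17, adjusted p = 8.94e-18). Podocytes held 85.5% of the Sema3e and 87.6% of the Sema3g CPM summed over classes. Sema3a, which repels endothelial and nerve cells, was at 260.3 and 333 CPM in stroma and 46.8 and 55.7 in mural cells, whose stroma markers are given above, and higher in stroma by a log2 difference of 5.78 (SE 0.18, adjusted p = 1.15e-15). Sema3c was at 765 and 516 CPM in proximal tubule, above every other class, with tip at 278 and 214 and collecting duct at 266 and 162. Sema3c was higher in proximal tubule by a log2 difference of 3.59 (SE 0.16, adjusted p = 9.29e-14). Sema3d was at 194 and 196 CPM in the tip, with no other class above 88.3 CPM, and a log2 difference of 3.78 (SE 0.22, adjusted p = 5.61e-11). Sema3f was highest in progenitors, at 40.7 and 41.6, and the tip at 35.8 and 30.8 lay just under it. Sema3b was at 39.7 and 44.5 CPM in podocytes and 31.9 and 36.98 in proximal tubule.

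Of the 9 plexins and neuropilins tested, 3 were highest in endothelium. Plxnd1, the receptor of Sema3e, was at 294 and 346 CPM in endothelium, with immune cells at 94.1 and 91.8 and mural cells at 85.4 and 93.4. It was higher in endothelium by a log2 difference of 4.48 (SE 0.13, adjusted p = 3.02e-16). Nrp2, the neuropilin co-receptor for Sema3f and some VEGFs, was at 145 and 189 CPM in endothelium, next in stroma at 33.8 and 56.3, and between 0.534 and 1.23 CPM in the loop of Henle, collecting duct and intercalated classes. Nrp2 was higher in endothelium by a log2 difference of 4.15 (SE 0.23, adjusted p = 4.61e-12). Plxna2 was at 122 and 135 CPM in endothelium, with a log2 difference of 2.58 (SE 0.16, adjusted p = 2.91e-11). Plxna4 was at 117 and 95.99 in the collecting duct and 76.5 and 135 in endothelium, and its progenitor libraries differed, at 12.5 and 78.1. Plxnc1, the receptor of Sema7a, was at 70.9 and 46.3 CPM in immune cells, higher by 4.58 and 4.12 in the libraries on the log2(CPM + 1) scale (edgeR adjusted p = 9.50e-12), and at 22.6 and 25.02 in the ureteric tip. Plxnb2, a receptor of class 4 semaphorins, was found in every class, from endothelium at 21.3 and 29.4 and the erythroid class at 27.1 and 19.9 to intercalated cells at 141 and 142. Plxnb1 was highest in podocytes, at 47.7 and 53.5, and Plxna1 in the tip, at 44.05 and 38.7. Plxna3 was at 8.49 and 6.10 in the tip and 6.07 and 7.06 in podocytes, which overlapped.

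Among the membrane-bound semaphorins, endothelium and tip shared Sema6a, at 499 and 493 CPM in the tip and 481 and 451 in endothelium, against 144 and 179.7 in stroma. The test gave a log2 difference of 3.30 (SE 0.19, adjusted p = 4.16e-11) for the tip and a log2 difference of 3.38 (SE 0.19, adjusted p = 5.13e-12) for endothelium. Others that were highest in endothelium were Sema6d at 209 and 182 CPM, Sema4c at 71.4 and 74.9, Sema5b at 65.2 and 102 and Sema6b at 10.96 and 15.8. So was Sema7a, the lipid-anchored member, at 24.2 and 22.6, higher by a log2 difference of 5.28 (SE 0.27, adjusted p = 1.28e-12), or by 3.61 and 3.81 in the libraries on the log2(CPM + 1) scale. Sema5a was in most epithelia and highest in podocytes, at 851 and 734 CPM, with mural cells at 493 and 544. Proximal tubule led for the class 4 members Sema4d, at 175 and 152 CPM, and Sema4a, at 44.96 and 33.5, and immune cells overlapped it for Sema4a, at 28.2 and 45.5. Sema4d is best known from lymphocytes, and here immune cells had 87.9 and 36.7. Sema4g was at 44.6 and 37.5 in intercalated cells, 27.1 and 42.7 in the collecting duct and 22.7 and 19.8 in progenitors. Sema4b ranged from 2.99 and 3.17 in endothelium to 43.9 and 28.99 in intercalated cells, which overlapped the loop of Henle and distal tubule at 41.2 and 31.5. Sema4f, at 5.04 and 2.75 in the tip, and Sema6c, at 12.3 and 10.04 in podocytes, were low.

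Among the ephrins, Efnb2 and Efna1 were highest in endothelium, Efnb1 in podocytes, Efna5 in the collecting duct and Efna4 in the ureteric tip. Efnb2, the arterial ligand that also signals in reverse into its own cell, was at 298 and 229.7 CPM in endothelium, 244 and 132 in the collecting duct, 203 and 143 in podocytes and 157 and 151 in mural cells. It was higher in endothelium by a log2 difference of 3.16 (SE 0.12, adjusted p = 1.82e-14), and it stood at or under 10.4 CPM in progenitors, stroma, proximal tubule and the loop of Henle. Efnb1 was at 408 and 482 CPM in podocytes, where ephrin-B1 sits at the slit diaphragm, and next at 98.9 and 82.6 in the early nephron, with a log2 difference of 3.64 (SE 0.11, adjusted p = 3.19e-16). Efna1 was at 91.1 and 96.02 CPM in endothelium, with a log2 difference of 3.49 (SE 0.12, adjusted p = 3.21e-15). Efna5 was shared by the collecting duct, at 370.0 and 249 CPM, tip, at 310.2 and 298, loop of Henle, at 298 and 262, progenitors, at 259 and 238, and early nephron, at 236 and 237. The collecting duct libraries spanned those of the tip and the loop, progenitors and early nephron lay at their lower end, and proximal tubule stood far under all of them at 7.20 and 6.46, with a log2 difference of -3.72 (SE 0.42, adjusted p = 2.43e-07). Efna4 in the tip was at 85.7 and 80.8, and Efna2, Efna3 and Efnb3 stayed at or under 21.3 CPM in every class. By mean CPM they were highest in the early nephron, the loop of Henle and distal tubule and the progenitors, in that order. Progenitors overlapped the early nephron for Efna2, and stroma overlapped the progenitors for Efnb3.

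Epha4 and Epha7 were highest in the early nephron. Epha4, which binds both ephrin classes, was at 271 and 291 CPM there against 130.3 and 100.4 in the tip. Epha7 was at 285 and 263 CPM there, against 88.8 and 53.5 in the erythroid class and 68.98 and 58.7 in proximal tubule. They were higher in the early nephron by a log2 difference of 3.64 (SE 0.20, adjusted p = 3.06e-11) and a log2 difference of 4.05 (SE 0.14, adjusted p = 8.73e-14). Epha3 was a stromal and mural receptor, at 139.6 and 239.6 CPM in stroma and 80.3 and 64.6 in mural cells, and no other class passed 13.6 CPM in either library. In stroma it was higher by a log2 difference of 6.40 (SE 0.21, adjusted p = 3.57e-15). Epha1 was in the tip, at 14.3 and 16.8 CPM, and collecting duct, at 14.6 and 12.1, which overlapped. Epha2, Epha5, Epha6, Epha8 and Epha10 stayed at or under 23.4 CPM, and Epha6 had its highest single value in the erythroid class, at 23.4 and 0.

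The EphB receptors were highest in endothelium, the loop of Henle and distal tubule, or the collecting duct. Ephb1 was at 211 and 234 CPM in endothelium and 131 and 89.3 in podocytes, and at 0 in immune cells. It was higher in endothelium by 5.25 and 5.52 in the libraries on the log2(CPM + 1) scale (edgeR adjusted p = 9.35e-18) and in podocytes by 4.52 and 4.02 in the libraries on the log2(CPM + 1) scale (edgeR adjusted p = 2.81e-15). Ephb4, the venous receptor of ephrin-B2, was at 126 and 148 CPM in endothelium and between 3.50 and 42.3 CPM elsewhere, with a log2 difference of 2.79 (SE 0.10, adjusted p = 3.47e-15). Ephb2 was at 98.1 and 81.6 CPM in the loop of Henle and distal tubule, 68.5 and 68.9 in the tip and 55.7 and 58.8 in progenitors, and 0.996 and 1.09 in endothelium, higher in the loop by a log2 difference of 2.94 (SE 0.12, adjusted p = 1.14e-13). Ephb3 followed the same order at the top, with 64.7 and 42.4 CPM in the loop and 36.1 and 35.7 in the tip. Ephb6, whose kinase domain is inactive, reached 9.44 and 9.07 in the collecting duct and 6.63 and 10.07 in the tip, which overlapped. Ephb4 overlaps the gene Zan on the opposite strand and Ephb1 overlaps Gm29388 on its own strand. With Slit2, Slit3, Ntn1 and Ntn3 (which overlaps Tbc1d24), 5 members overlap another annotated gene on their own strand, and 23 overlap one on the opposite strand (GENCODE M21, GRCm38), so that reads of such pairs may have been split.

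Ureteric tip and collecting duct both come from the ureteric bud, the tip being its branching end. Of 66 members tested, 34 were called between them, 20 higher and 14 lower in the tip, while 33.8% of all genes were called (16.1% higher and 17.7% lower). Plxnc1 was at 22.6 and 25.02 CPM in the tip and 0.534 and 0.709 in the duct, a difference of 5.09 on the log2 scale (SE 0.54, adjusted p = 8.98e-07). Epha4 was at 130.3 and 100.4 against 10.3 and 6.10 CPM, a log2 difference of 3.73 (SE 0.43, adjusted p = 1.65e-06). Both Robo receptors of the epithelium were higher in the tip, Robo1 at 409.9 and 374 against 70.00 and 45.2 CPM (log2 2.70, SE 0.19, adjusted p = 6.83e-09) and Robo2 at 175 and 98.5 against 16.4 and 17.9 (log2 2.83, SE 0.47, adjusted p = 8.84e-05). Their ligand Slit2 differed by 0.04 on the log2 scale (SE 0.23, adjusted p = 0.944), with libraries of both classes between 762 and 903 CPM. Of the netrin receptors 3 were higher in the tip and Unc5b lower, and Ntn1 and Ntn4 were lower: Unc5c was at 294 and 306 against 30.8 and 17.01 CPM and Neo1 at 276 and 234 against 106 and 96.8, while Ntn1 was at 0.796 and 0.915 against 9.97 and 22.4 and Ntn4 at 11.1 and 7.32 against 52.2 and 28.8.

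Semaphorins split between tip and duct. Sema6a was at 499 and 493 CPM in the tip and 29.9 and 21.6 in the duct, a log2 difference of 4.19 (SE 0.38, adjusted p = 1.14e-07). Sema3d was also higher in the tip, at 194 and 196 against 68.9 and 31.8 CPM, and Sema4g was lower, at 1.59 and 3.97 against 27.1 and 42.7, a log2 difference of -3.77 (adjusted p = 1.75e-07). Sema5b, at 7.96 and 0.915 against 0.356 and 0.425 CPM, rested on 1 tip library. The plexins called lower in the tip were Plxna2, Plxna4, Plxnb2 and Plxnd1, with log2 differences of -1.93 to -1.07, and in each the libraries of the classes did not overlap. Unc5d, Epha5, Sema4f, Slit1, Ephb3, Ephb2, Efna4, Efna2, Epha7, Sema4d and Sema4c were called higher, and Efnb2, Efnb1, Efna1, Unc5b, Sema3b, Sema4a and Sema4b lower. Sema4f passed the low-count filter through its tip counts alone, so its call rests on the values that admitted it. The tip counts come from 57 and 40 cells, and a limma fit on log2 CPM called 20 members in place of 34, and 27.6% of all genes.

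**Figure D3:**
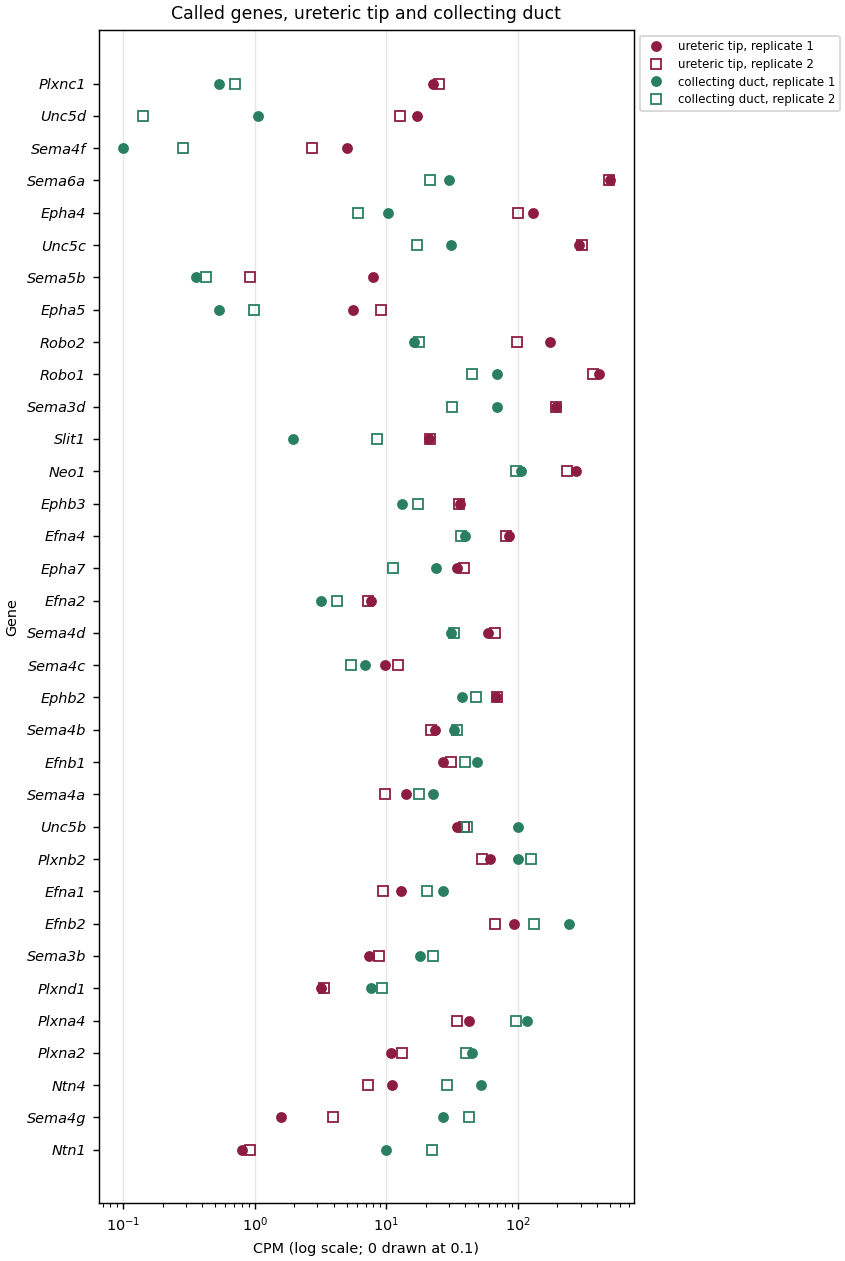
CPM on a log scale of the 34 members called between ureteric tip and collecting duct, 1 point per library, ordered by log2 difference. Plxnc1, Sema6a and Epha4 sit far to the right in tip, Ntn1 and Sema4g far to the left, and Sema5b has tip libraries far apart.

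The early nephron, gated on markers that include Wnt4, Fgf8 and Lhx1, was compared with the nephron progenitors it forms from. Of 66 members 30 were called, 21 higher and 9 lower in the early nephron, while 29.2% of all genes were called (15.7% higher and 13.6% lower). Robo2 was the most reduced, at 217 and 142 CPM in the early nephron against 3290.1 and 3288 in progenitors, and it fell by 4.28 on the log2 scale (SE 0.45, adjusted p = 5.58e-07). Unc5c, at 436 and 202 against 1291 and 1521 CPM, and Dcc, at 13.9 and 15.9 against 38.5 and 35.1, were lower too, so that 2 netrin receptors and a Slit receptor were lower together. Sema4g was at 2.70 and 2.71 against 22.7 and 19.8 CPM (log2 -3.001, SE 0.29, adjusted p = 1.53e-07). Robo1 went the other way, from 298 and 288 CPM in progenitors to 613 and 546 in the early nephron (log2 0.95, SE 0.18, adjusted p = 3.80e-04).

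Eph receptors and an ephrin were among the members that were higher by most in the early nephron. Ephb1 was at 43.7 and 31.6 CPM against 1.70 and 2.33 in progenitors, a log2 difference of 4.19 (SE 0.27, adjusted p = 1.83e-09). Epha7 was at 285 and 263 against 29.7 and 22.2 CPM and Epha4 at 271 and 291 against 26.5 and 28.4, differences of 3.39 (adjusted p = 5.37e-09) and 3.33 (adjusted p = 1.00e-06). The libraries of the classes did not overlap for any of these 3 receptors. Efnb2, a ligand for Epha4 and Ephb1, was at 72.4 and 33.4 against 10.4 and 3.65 CPM, with both early nephron libraries above both progenitor ones. Ntn4 was at 25.8 and 16.6 against 1.76 and 2.26 CPM and Unc5d at 9.46 and 19.3 against 1.34 and 0.875. Sema5a, Sema6a, Sema3d, Sema3g, Sema3a, Sema5b, Sema6c and Sema4d were higher, as were Plxnd1, Plxnb1, Plxnb2, Unc5b, Epha1 and Ephb3, and Plxna2, Plxna4, Sema3f, Efnb3 and Ephb2 were lower. Slit2, at 319.9 and 255 against 214 and 270.5 CPM, was not called (adjusted p = 0.528), nor was Slit3, at 223 and 234 against 129 and 150.0 (adjusted p = 0.274). The limma fit called 16 of the members in place of 30, and 15.8% of all genes.

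Foxd1 marks the stromal progenitors of the cortex in which the Cre is expressed, and stroma cells were divided by whether they had a Foxd1 UMI (271 and 214 cells) or none (435 and 230 cells). A cell without a Foxd1 UMI may still express the gene, and cells with one had slightly more UMIs, with medians of 11839 and 15931.5 against 10468 and 14623. Of 65 members tested, 1 was called, while 0.877% of all genes were called (0.466% higher and 0.411% lower). That member was Ntn1, at 170.0 and 175 CPM in Foxd1-positive and 37.4 and 39.03 in Foxd1-negative stroma, a log2 difference of 2.18 (edgeR, SE 0.24, adjusted p = 8.40e-05). Both Foxd1-positive libraries were above both Foxd1-negative ones. With free RNA subtracted, the difference was 2.22 and the adjusted p 0.116, and with cells of at least 2 Foxd1 UMIs it was 2.64.

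Other stromal members did not pass. Sema5a was at 127 and 150.0 CPM in Foxd1-positive and 251 and 360.0 in Foxd1-negative cells, without overlap (log2 -1.13, SE 0.29, adjusted p = 0.0707). Plxna2 was at 47.8 and 58.2 against 21.1 and 33.3 CPM (log2 0.995, adjusted p = 0.1), Ephb2 at 30.99 and 33.3 against 18.00 and 21.9 (log2 0.71, adjusted p = 0.16) and Nrp2 at 18.9 and 36.5 against 44.3 and 78.4 (log2 -1.12, adjusted p = 0.307). Sema3a, the main stromal semaphorin, was at 195 and 261 against 306 and 414 CPM (log2 -0.65, SE 0.28, adjusted p = 0.486). Robo1 and Robo2 had log2 differences of -0.02 (SE 0.18) and 0.09 (SE 0.37). Mural markers summed to 353 and 832 CPM in Foxd1-positive and 639 and 1189.6 CPM in Foxd1-negative cells, and their part in the values of Sema5a, which mural cells hold at 493 and 544 CPM, was not tested.

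**Figure D4:**
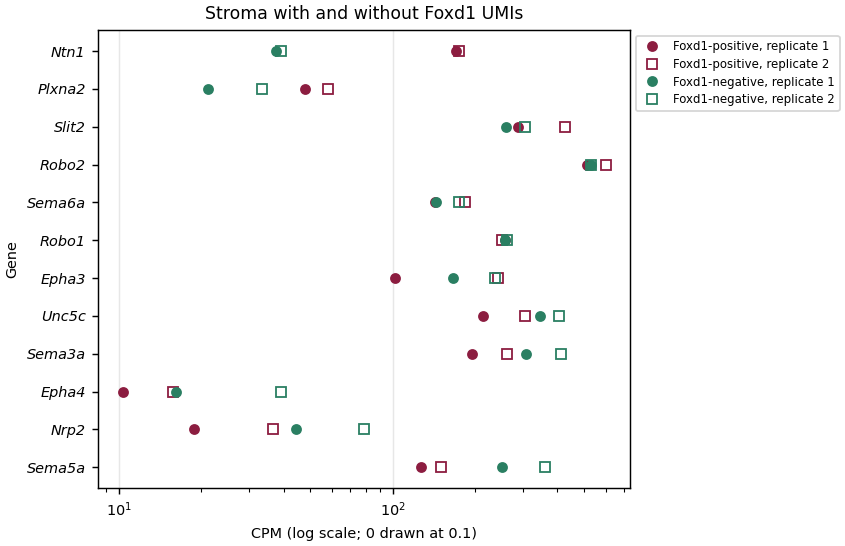
CPM on a log scale of 12 members in stroma with and without a Foxd1 UMI, 1 point per library. Ntn1 is the only one of the 65 tested members that passed the test, and its 4 points form pairs near 170 and 38 CPM.

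Endothelial cells were divided into arterial-marked cells (169 and 115, with UMIs of Gja4, Gja5, Sox17, Bmx or Dkk2) and Plvap-marked cells (218 and 207, with the fenestral protein of capillaries and veins). Of 65 members 23 were called, 12 higher and 11 lower in arterial-marked cells, while 7.71% of all genes were called (4.98% higher and 2.73% lower). The textbook arterial and venous pair differed in opposite directions. Efnb2 was at 460.1 and 348 CPM in arterial-marked and 141 and 142 in Plvap-marked cells, a log2 difference of 1.44 (SE 0.23, adjusted p = 1.83e-04), and Ephb4 at 103 and 125 against 154 and 171, a difference of -0.56 (SE 0.15, adjusted p = 0.0262). Neither gene's libraries overlapped, and the receptor differed less than the ligand.

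Larger differences lay with other members. Sema3g was at 53.2 and 53.9 CPM in arterial-marked and 2.73 and 3.74 in Plvap-marked cells (log2 3.99, SE 0.44, adjusted p = 2.51e-06), Sema7a at 51.6 and 51.3 against 1.95 and 6.12 (log2 3.59, adjusted p = 4.78e-05) and Ntn4 at 84.7 and 57.9 against 2.34 and 10.5 (log2 3.34, adjusted p = 5.35e-05). Sema5a was at 72.1 and 36.9 against 3.12 and 2.38 CPM, with arterial-marked libraries that differed from each other. Sema3g and Sema5a are also podocyte genes, and podocyte markers summed to 677 and 578 CPM in arterial-marked and 283 and 275 CPM in Plvap-marked cells, against 11575 and 10568 CPM in podocytes. Robo2, at 4949 and 5036 CPM in podocytes, was at 16.8 and 12.2 in arterial-marked and 20.6 and 17.4 in Plvap-marked cells. The part of podocyte RNA in the endothelial values of Sema3g and Sema5a was not tested. Sema6d, at 309.9 and 285 against 123 and 113 CPM, Unc5b, at 184 and 188 against 68.9 and 85.7, and Robo1, Robo4, Sema3f, Epha6 and Epha7 were the other members higher in arterial-marked cells. The calls of Epha6 and Epha7 were lost without the replicate block (adjusted p = 0.0571 and 0.0556), and that of Epha7 also with the stricter gate (adjusted p = 0.729).

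Members higher in Plvap-marked cells included 2 netrin receptors. Unc5c was at 800.1 and 849 CPM there and 78.5 and 149 in arterial-marked cells, a log2 difference of -2.88 (SE 0.41, adjusted p = 5.22e-05), so that Unc5b and Unc5c differed in opposite directions. Unc5d was at 37.8 and 20.4 against 0.801 and 3.13 CPM and Epha3 at 18.3 and 18.03 against 1.60 and 2.19, with larger log2 differences of -3.96 and -3.29. Sema5b, at 123 and 183 against 32.1 and 37.9 CPM, and Ephb1, at 273 and 289 against 126 and 120.2, followed, with Sema3a, Sema3d, Sema4c, Slit3 and Efna2. Plxnd1, the receptor of podocyte Sema3e, was at 256 and 299.9 CPM in arterial-marked and 321 and 368 in Plvap-marked cells and was not called (log2 -0.35, SE 0.22, adjusted p = 0.419). Nrp2, at 85.8 and 121 against 182 and 216 CPM, was not called either (adjusted p = 0.095). With free RNA subtracted, 13 members were called in place of 23 (3.82% of all genes), and a limma fit called 14 (6.4% of all genes).

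**Figure D5:**
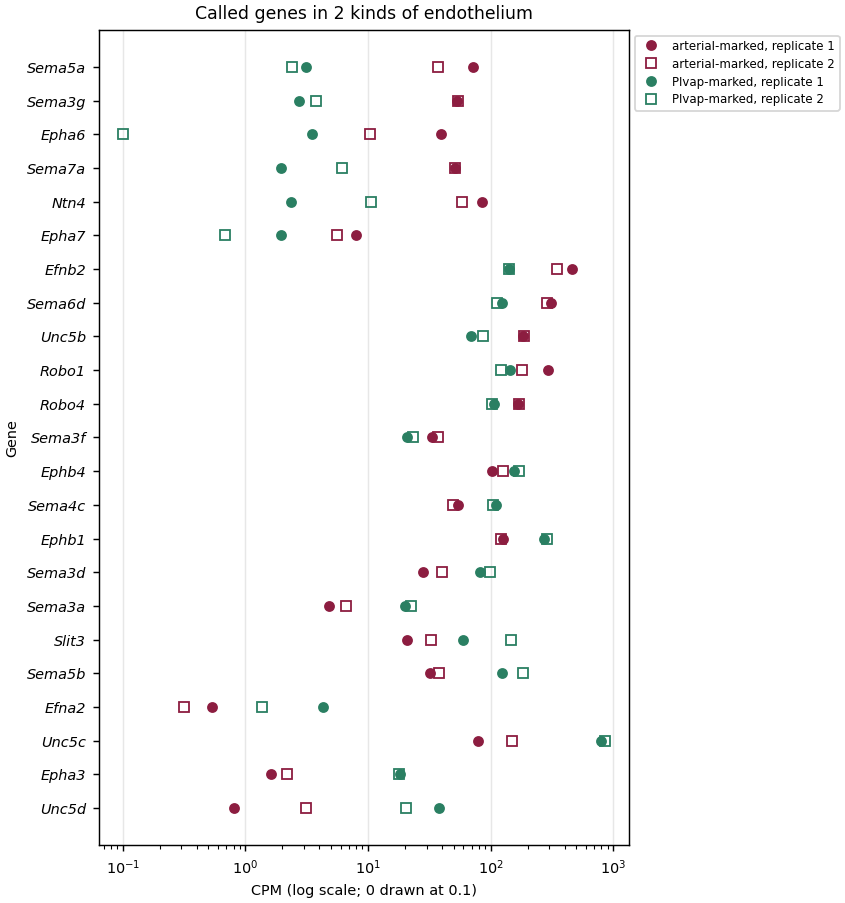
CPM on a log scale of the 23 members called between arterial-marked and Plvap-marked endothelium, 1 point per library, with a count of 0 drawn at 0.1. Sema3g, Sema7a and Ntn4 lie to the right in arterial-marked cells and Unc5c, Epha3 and Unc5d in Plvap-marked cells, while Ephb4 and Robo4 differ little.

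The rest of the pathway was followed with 15 co-receptors and modulators and 41 intracellular effectors, all of which could be tested. Tip and duct differed in 7 of the 15 co-receptors (6 higher and 1 lower in the tip, median log2 0.76 against -0.03 for all genes) and in 16 of the 41 effectors (8 each way), with 33.8% of all genes called. Dscam, a receptor that can bind netrins, and Nrp1, the co-receptor of class 3 semaphorins, were among those higher in the tip, by 5.28 and 1.94 on the log2 scale. The early nephron differed from progenitors in 6 of 15 co-receptors (2 higher and 4 lower) and 17 of 41 effectors (9 higher and 8 lower), with the collapsin response mediator Dpysl5 higher by 4.77 and the Slit-Robo GTPase activator Srgap1 by 1.63, where 29.2% of all genes were called. Arterial-marked and Plvap-marked cells differed in 4 of 15 and 5 of 41, with 7.71% of all genes called, among them Nrp1, higher in arterial-marked cells by 1.41. Between Foxd1-positive and Foxd1-negative stroma 0 genes of either list passed by edgeR, DESeq2 or limma, and 2 co-receptors and 4 effectors had an unadjusted edgeR p under 0.05.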

How the data were processed

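The authors deposited raw UMI counts per gene and barcode for both libraries, made with Cell Ranger 6.0.1 on mm10 per the submitters' processing notes, while the matrix header, per the file headers, names Cell Ranger 4; whether counting used strand is not given in the sources used here. A barcode counted as a cell from 3000 UMIs and 500 genes up, if no more than 20% of its UMIs were mitochondrial. Scrublet (scanpy 1.11.5) then took out the top-scoring 0.8% per 1000 cells, which was 245 and 142 likely doublets. The libraries shared 5 cell barcodes. A cell entered the class whose markers were highest over their expected count, at least 2-fold and at least 2-fold above the next of 16 lists, with at least 4 UMIs from at least 2 markers. In stroma, 271 and 184 cells lay just inside that margin and 117 and 145 just outside it.

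Sums of counts for each class in each library were fitted with edgeR 4.0.16 (R 4.3.3, TMM scaling, filterByExpr, library as a block). There were 12 residual degrees of freedom for the 13 classes and 15 for the fit with stroma and endothelium divided. The fit was also run on simulated counts in which most genes had equal levels in all classes. That run does not cover genes with no count in a class. P-values were adjusted by the Benjamini-Hochberg method over all genes tested except gating markers. Named genes are up to 6 members per class, or 10 per pair of classes, with the largest called differences. They also had the same sign in both libraries and at least 20 UMIs. In addition, 28 members were always given, tested in the class where their mean CPM was highest in these data. The rest are named by their highest class or call. The members and lists were chosen with earlier results of these data known. Median depth was 14689.5 and 19773 UMIs per cell. Free RNA was estimated from haemoglobin. Outside the erythroid class, the estimate reached 26.6% in replicate 1 (immune cells) and 1.96% in replicate 2 (mural cells). Free RNA of replicate 1 held Robo2 at 324 CPM, while Robo1 and Robo2 together had 27.0 CPM in immune cells of that library. A share of 26.6% would bring more than that, so the estimate was too high there. The subtraction of free RNA can therefore take off too much in replicate 1. The replicate numbers are names in accession order; classes with the same number come from the same library.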

Additional observations from a re-analysis of the deposited data

How the results depend on the processing

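Over the alternatives run, no named result changed direction. Named results were picked from these same data by size and sign or by highest class, so a kept direction was largely built in. Of 1265 values with a test, 1236 kept their side of the threshold and 29 lost it. Among those lost was Robo3 in endothelium by DESeq2 1.42.0 (adjusted p = 0.0646). Without the replicate block the classes gave 517 calls in place of 529, with 39.5% of the tests of all genes called. The 2-class comparisons gave 32, 25, 1 and 18 in place of 34, 30, 1 and 23 (28.2%, 21.4%, 0.3% and 5.13% of all genes). Their order is tip against duct, early nephron against progenitors, Foxd1-positive against negative stroma, and arterial-marked against Plvap-marked endothelium. The class calls ranged from 448 (free RNA subtracted, with 37.2% of the tests of all genes called) to 559 (DESeq2, with 45.3%). The Foxd1 comparison gave 4 without the low-count filter (1.25% of all genes), 2 with the stricter gate (0.203%) and 4 with at least 2 Foxd1 UMIs (2.03%). It gave 0 with free RNA subtracted (0.0185%), where 6 members had an unadjusted edgeR p under 0.05. DESeq2 and limma on the counts as deposited each called 1 (0.92% and 0.264% of all genes). The endothelial comparison gave 13 with free RNA subtracted (3.82% of all genes). As given above, this subtraction can take off too much in replicate 1. The last alternatives, without the erythroid class and with limma, were chosen after seeing the data. Leaving out the erythroid class gave 515 class calls of 792, with 47.9% of the tests of all genes called. Limma 3.58.1 on log2 CPM gave 20 for tip against duct (27.6% of all genes), 16 for early nephron against progenitors (15.8%) and 14 for endothelium (6.4%). It called lower 23 of the 42 member tests in which edgeR's mean of the other classes had no lower bound. The cause was not tested for these shifts. Leaving out a library gave no count, since 1 library per class leaves no residual. Depth limits the rare classes: 57 and 40 tip cells, and members under about 1 CPM.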
